A study of Mus musculus with 12 samples.

Results

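The genes described here encode the nuclear subunits of the oxidative phosphorylation complexes. They were taken from the array annotation as every symbol beginning with Nduf (complex I, without the Ndufaf assembly factors), Uqcr or Cyc1 (complex III), Cox4 to Cox8 (complex IV) and Atp5 (complex V), with Sdha, Sdhb, Sdhc and Sdhd (complex II). This rule used no measured value and matched 123 probes and 80 gene symbols, of 45281 probes and 19057 symbols on the array. A probe was kept where 1 group or more had a detection p-value under 0.05 on each of its 3 arrays, and 106 probes of 72 genes passed, among 12128 genes tested in all. Cultured fibroblasts from mouse embryos, cells that lay down connective tissue, were measured in 4 groups of 3 arrays each: Sirt2-/- cells given mouse interferon beta (IFNβ) at 2500 IU/ml for 4 h, Sirt2-/- cells left untreated, Sirt2+/+ cells given the same interferon, and untreated Sirt2+/+ cells. Sirt2 encodes an NAD-dependent deacetylase, and the study asked about its part in type I interferon signalling. The labels do not give the number of embryos or cultures behind a group, the strain, the deletion or the passage. The p-values therefore measure only the spread between these samples, which may be technical.

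Oxidative phosphorylation is carried out in the inner mitochondrial membrane. Complexes I and II pass electrons from NADH and succinate to ubiquinone, complex III passes them to cytochrome c, complex IV hands them to oxygen, and complex V, the ATP synthase, uses the proton gradient that complexes I, III and IV build. Most subunits are encoded in the nucleus, and a core set for every complex except complex II is encoded in mitochondrial DNA. Cultured fibroblasts keep this machinery while also running glycolysis.

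None of the 72 subunit genes passed the test for a response to interferon in either genotype, while 24 to 28 of them differed between Sirt2-/- and Sirt2+/+ cells. Those differences ran in both directions within complexes I, IV and V, while complex II was called only as higher and complex III only as lower. On the brightest probe of each gene nearly all were under 2-fold, and they were a smaller share than among all genes. On these probes the largest were higher levels of Cox7a2, Ndufb3 and Ndufb7 and lower levels of Cox4i1, Atp5d, Cox7a2l and Ndufa12 in Sirt2-/- cells. A dimmer probe of Atp5o was higher by more than 2-fold.

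A few facts about the arrays bear on these values. Between 17091 and 18155 probes were detected per array, and across probes the arrays within any 1 group had Pearson correlations of 0.9926 to 0.996. The Sirt2 probe averaged 6.12 and 6.44 (log2) in treated and untreated Sirt2-/- cells, against 8.99 and 8.85 in treated and untreated Sirt2+/+ cells, and was above background on all 12 arrays. The sources used here do not place this probe relative to the deletion. Of 10 fibroblast markers, 9 or 10 were detected on every array, with a summed linear level between 17198 and 20788 in Sirt2-/- cells and between 29800 and 39506 in Sirt2+/+ cells. Most of these markers were lower in Sirt2-/- cells. Thy1, Col3a1, Pdgfra, Pdgfrb, Vim and S100a4 lay lower on every Sirt2-/- array than on any Sirt2+/+ array. Col5a1 was lower within each treatment, and Col1a2 overlapped between genotypes. Thy1 lay between 9.38 and 11.15 (log2) in Sirt2-/- cells and between 13.20 and 13.39 in Sirt2+/+ cells. On treated arrays Col1a1 went the other way (11.36 to 11.73 against 10.85 to 10.92), as did Fn1 (9.49 to 9.79 against 9.03 to 9.44). Untreated, both overlapped between genotypes. Of 4 epithelial markers, 0 to 2 were detected per Sirt2-/- array and 1 to 3 per Sirt2+/+ array. Among them Krt18, a keratin, lay between 4.41 and 5.77 (log2) in Sirt2-/- cells and between 8.88 and 9.55 in Sirt2+/+ cells. Of 8 muscle markers, 2 or 3 were detected per Sirt2-/- array and 1 to 3 per Sirt2+/+ array. Their summed level was between 233.1 and 285.0 against 441.5 and 640.9. Only Acta1 set the genotypes apart, with 5.85 to 6.82 in Sirt2-/- cells and 8.11 to 8.81 in Sirt2+/+ cells. The other muscle markers lay at or below 5.64 and overlapped between genotypes. The 4 macrophage and the 4 endothelial markers, with 0 or 1 detected per array, each summed to between 83.6 and 110.3. The genotypes also differ in sex-linked transcripts. The Y-linked Eif2s3y lay between 9.39 and 9.70 in Sirt2-/- cells and between 4.32 and 6.78 in Sirt2+/+ cells, and Xist, made from an inactive X chromosome, between 4.27 and 6.85 in Sirt2-/- cells and between 9.44 and 10.32 in Sirt2+/+ cells. A genotype difference that goes with the sex of the cells, one that goes with the cell population, and one that goes with Sirt2 loss cannot be told apart. On untreated Sirt2-/- arrays 2 and 3, the summed level of 7 interferon-induced genes was 14219 and 18719, against 814.5 on array 1, and that of 8 transcripts that mark Sirt2+/+ cells was 1754 and 1546, against 221.3. Treated Sirt2-/- arrays 2 and 3 had 401.8 and 396.1 for the same 8, against 207.0 on array 1. Treated Sirt2+/+ array 2 had 330.4 for 4 transcripts that mark Sirt2-/- cells, with all 4 detected, against 92.1 and 86.0 on arrays 1 and 3, with 0 detected. Without that array, 15 members were higher and 10 lower with interferon. Untreated Sirt2+/+ array 2 had 126.1 for the same 4, with 2 detected, against 89.9 and 86.9 on arrays 1 and 3, with 0 detected. Without untreated Sirt2+/+ array 2, 16 members were higher and 8 lower untreated, where 47.5% of all genes were called. Counts that use the untreated Sirt2-/- group are also given without its arrays 2 and 3. In bulk RNA, fewer cells of a type and less RNA per cell cannot be told apart.

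The subunit genes were among the brighter probes on the array. Their median log2 level over the 12 arrays was 11.90, against 8.01 for all 12128 genes, and 33 of the 72 (45.8%) were above 12, against 7.05% of all genes. A bead array gives no level per length, so probes of different genes are not ranked here. The tested genes were 35 of 36 for complex I, 3 of 4 for complex II, 8 of 8 for complex III, 10 of 16 for complex IV and 16 of 16 for complex V. Of the 8 genes left out, Cox4i2, Cox6a2, Cox6b2, Cox7b2, Cox8b and Cox8c encode subunit isoforms that are known from particular tissues such as muscle, lung and testis, and their probes were detected on 0 or 1 of 12 arrays. Ndufs1 and Sdha encode core subunits that the complexes cannot work without, and each has a single probe that was detected on 1 array, so these values describe the probes and not the genes. Ndufs5-ps is the symbol of a pseudogene that the name rule takes in. Subunit genes with processed pseudogenes may cross-hybridise, and a probe cannot separate near-identical copies.

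To show where these genes are read from, the 250 bases before the annotated start were taken from RefSeq (build GRCm38.p6) for 6 members with a genotype difference: 4 that were higher in Sirt2-/- cells in both comparisons and 2 that were lower in both. Nuclear respiratory factor 1 (NRF1), GABPA, also called nuclear respiratory factor 2, YY1 and ERRalpha are transcription factors known to bind promoters of respiratory chain genes. On both strands, the search was for the core palindrome of NRF1, the GABPA core CCGGAAG, the core AAGATGG bound by YY1, and the ERRalpha core AAGGTCA. No match in the printed windows overlaps another. Capitals mark the matches. Each sequence is written in the direction of its gene.
Cox7a2 (higher, chr9:79759854-79760103, minus strand): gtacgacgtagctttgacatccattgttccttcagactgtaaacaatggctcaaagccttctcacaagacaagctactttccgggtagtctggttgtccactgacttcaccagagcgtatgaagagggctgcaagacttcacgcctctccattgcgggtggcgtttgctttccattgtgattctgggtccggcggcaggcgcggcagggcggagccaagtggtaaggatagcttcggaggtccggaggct
Ndufb7 (higher, chr8:83566508-83566757, plus strand): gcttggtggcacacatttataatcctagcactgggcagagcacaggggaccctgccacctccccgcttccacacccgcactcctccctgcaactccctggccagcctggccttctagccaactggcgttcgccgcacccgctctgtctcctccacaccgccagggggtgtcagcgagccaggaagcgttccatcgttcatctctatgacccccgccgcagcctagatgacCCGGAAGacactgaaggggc
Ndufb4 (higher, chr16:37654369-37654618, minus strand): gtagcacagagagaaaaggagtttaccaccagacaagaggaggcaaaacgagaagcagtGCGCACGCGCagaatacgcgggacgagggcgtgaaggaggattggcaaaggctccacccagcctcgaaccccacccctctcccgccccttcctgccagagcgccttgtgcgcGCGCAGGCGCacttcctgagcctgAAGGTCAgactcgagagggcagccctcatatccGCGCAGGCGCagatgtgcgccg
Cox6a1 (higher, chr5:115348959-115349208, minus strand): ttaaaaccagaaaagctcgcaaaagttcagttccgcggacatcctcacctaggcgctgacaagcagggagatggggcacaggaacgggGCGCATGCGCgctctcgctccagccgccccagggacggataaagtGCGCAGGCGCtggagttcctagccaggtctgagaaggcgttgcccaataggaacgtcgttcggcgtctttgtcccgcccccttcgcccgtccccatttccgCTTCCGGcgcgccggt
Uqcr11 (lower, chr10:80406822-80407071, minus strand): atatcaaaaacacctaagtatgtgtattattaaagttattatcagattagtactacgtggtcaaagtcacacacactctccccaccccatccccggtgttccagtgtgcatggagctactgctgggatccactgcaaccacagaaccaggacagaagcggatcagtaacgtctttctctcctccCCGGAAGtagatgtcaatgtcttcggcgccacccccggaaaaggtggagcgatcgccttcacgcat
Cox7a2l (lower, chr17:83514334-83514583, minus strand): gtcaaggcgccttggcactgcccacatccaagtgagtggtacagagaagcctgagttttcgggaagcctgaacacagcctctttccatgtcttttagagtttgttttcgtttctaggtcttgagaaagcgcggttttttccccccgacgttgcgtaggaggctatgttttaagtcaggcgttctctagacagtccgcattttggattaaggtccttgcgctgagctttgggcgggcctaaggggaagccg

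In these windows Ndufb4 holds the NRF1 letters at 3 places and the ERRalpha letters at 1, Cox6a1 holds the NRF1 letters at 2 places and the GABPA letters at 1, and Ndufb7 and Uqcr11 hold the GABPA letters at 1 place each. None of the 4 motifs occurs in the windows of Cox7a2 and Cox7a2l. Windows of 300 bases (250 before to 50 after the start) were available for 61 of the 72 tested members. A gene was counted where any of its windows held the letters. The NRF1 letters were in 15 of these 61 (24.6%), against 12% of the 7909 tested genes with a window and 5.19% of all 27025 genes with a window. The GABPA letters were in 16 (26.2%), against 21.2% and 9.93%. The YY1 letters were in 10 (16.4%), against 8.89% and 7.28%, and the ERRalpha letters in 7 (11.5%), against 3.55% and 5.38%. The interferon-stimulated response element, searched by its core on both strands, was in 2 of the 61 members (3.28%). The shares were 3.81% of tested genes and 3.99% of all genes with a window. Among the 13 members higher in Sirt2-/- cells in both comparisons, 4 held the NRF1 letters and 3 the GABPA letters, and among the 8 with a window of the 9 members lower in both, 1 held each. These matches describe letters in a window and not bound sites.

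Interferon beta left the subunit genes without a single call in either genotype. In Sirt2-/- cells, 0 of 72 passed an adjusted p of 0.05 (limma, Benjamini-Hochberg over 12128 genes), where 6.61% of all genes did, and 2 had an unadjusted p under 0.05, against 19.3% of all genes. In Sirt2+/+ cells, 0 of 72 passed, where 13.8% of all genes did, and 0 had an unadjusted p under 0.05, against 26.3% of all genes. Among the 2029 genes at or above the lower quartile of the members' levels, 4.53% and 9.12% were called in Sirt2-/- and Sirt2+/+ cells, so genes of similar brightness did pass in both genotypes. The median difference of the members, interferon minus untreated, was 0.01 (log2) in Sirt2-/- cells and 0.04 in Sirt2+/+ cells, while that of all genes was -0.05 and -0.06.

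The intervals bound the size of a response. With all arrays, the 95% confidence interval of the response lay within 0.5 log2 of 0 for 61 of 72 members in Sirt2-/- cells and for 65 in Sirt2+/+ cells, and it lay within 1 log2, a 2-fold change, for all 72 in both. The widest bounds were -0.67 (Atp5a1) and 0.69 (Uqcrq) in Sirt2-/- cells, and -0.45 (Ndufb2) and 0.75 (Uqcrq) in Sirt2+/+ cells. Without untreated Sirt2-/- arrays 2 and 3, the count in Sirt2-/- cells was again 0 of 72, but the intervals were wider. Then 43 lay within 0.5 and 69 within 1 log2, and those of Cox7b (0.57 ± 0.27, SE, upper bound 1.15), Ndufb2 (0.47 ± 0.26, upper bound 1.03) and Atp5md reached past 1.

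Atp5pb, a subunit of the peripheral stalk that holds the ATP synthase head still, came closest to the threshold and is named here after its values were seen. It measured 10.93, 10.64 and 11.01 (log2) in treated and 11.18, 11.35 and 11.22 in untreated Sirt2-/- cells. The groups do not overlap, and the difference was -0.39 ± 0.12 (SE; adjusted p = 0.070, limma). Without background correction, and with median scaling between arrays, this gene passed the threshold as lower. Its other 2 kept probes did not pass, with -0.21 ± 0.12 (adjusted p = 0.36, limma over all probes) and 0.08 ± 0.18 (adjusted p = 0.87, limma), the second of opposite sign. In Sirt2+/+ cells it measured 10.98, 11.19 and 10.92 treated and 11.05, 11.20 and 11.06 untreated, which overlap, with a difference of -0.08 ± 0.12 (adjusted p = 0.75, limma).

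Atp5g3, 1 of the genes for the membrane ring subunit c of complex V, had the other unadjusted p under 0.05 in Sirt2-/- cells. It measured 14.13, 14.21 and 14.27 in treated and 14.41, 14.36 and 14.42 in untreated Sirt2-/- cells, a difference of -0.19 ± 0.09 (adjusted p = 0.25, limma). In Sirt2+/+ cells it measured 13.89, 14.06 and 13.93 treated and 14.19, 14.12 and 14.11 untreated, a difference of -0.18 ± 0.09 (adjusted p = 0.22, limma). In both genotypes the treated arrays lay below the untreated ones, and neither difference passed the test. Among core subunits, Atp5a1, the alpha subunit of complex V, differed by -0.30 ± 0.17 in Sirt2-/- cells and 0.06 ± 0.17 in Sirt2+/+ cells (adjusted p = 0.36 and 0.87, limma). Atp5b, the catalytic beta subunit, differed by -0.03 ± 0.09 in Sirt2-/- cells and 0.08 ± 0.09 in Sirt2+/+ cells, and Uqcrc1, a core protein of complex III, by 0.01 ± 0.10 and -0.03 ± 0.10. Cyc1, the cytochrome c1 of complex III, differed by 0.07 ± 0.10 and 0.19 ± 0.10.

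**Figure D1:**
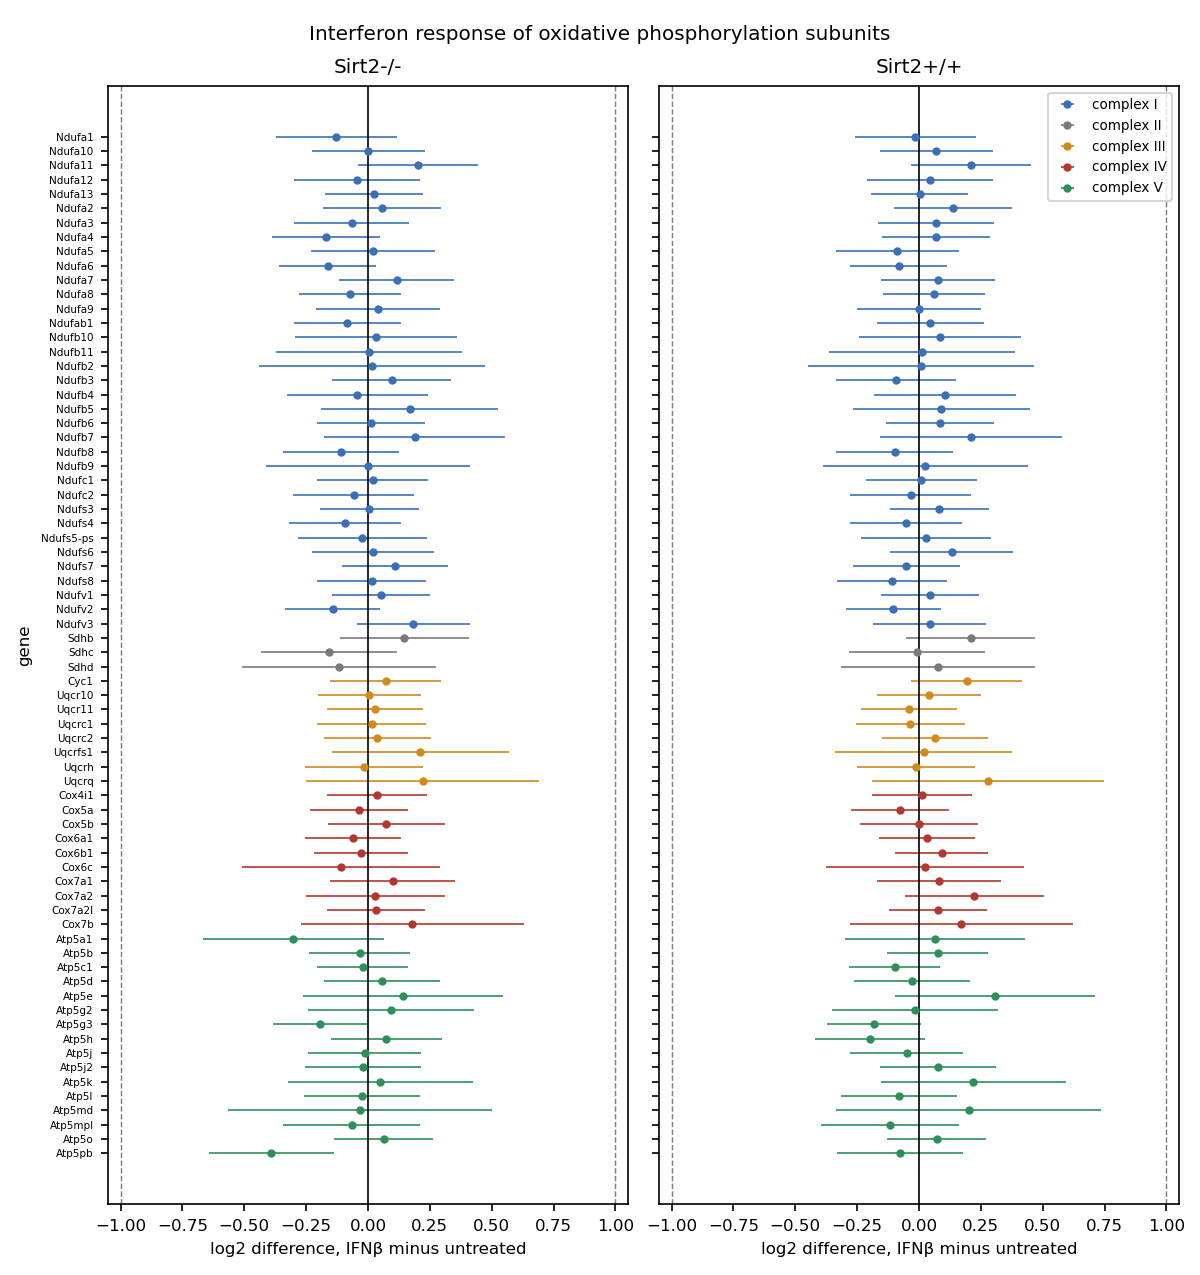
Points are log2 differences (interferon minus untreated) with 95% confidence intervals for the 72 subunit genes in Sirt2-/- (left) and Sirt2+/+ cells (right), coloured by complex, with dashed lines at a 2-fold change. Every interval lies inside the dashed lines, and 61 and 65 lie within 0.5 of 0.

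The responses of the genotypes were also compared with each other. For 0 of 72 members did the response in Sirt2-/- cells minus that in Sirt2+/+ cells pass the test, where 0.503% of all genes did, and 0 had an unadjusted p under 0.05, against 7.55% of all genes. The differences ran between -0.36 and 0.27 (log2), with a median of -0.03. The smallest adjusted p was 0.74, for Atp5pb.

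Genotype differences were of another order. For these, with interferon and untreated name the arrays on which Sirt2-/- cells were compared with Sirt2+/+ cells, and not a response to interferon. With interferon, 14 of the 72 members were higher and 10 lower in Sirt2-/- than in Sirt2+/+ cells (33.3%), where 50.3% of all genes were called, 27.1% higher and 23.2% lower. Untreated, 16 were higher and 12 lower (38.9%), where 51.2% of all genes were called, 27.1% higher and 24.2% lower. Among the 2029 genes at or above the members' lower quartile of level, 45.4% and 47.7% were called. The share of members called was thus below the background in both comparisons. The lower calls in each include Cox7a1, which passed the detection filter only through treated Sirt2+/+ cells. The median difference was 0.01 with interferon and 0.02 untreated, and that of all genes 0.06 and 0.05. With interferon, 0 members were called with a change of at least 2-fold, where 12.5% of all genes were. Untreated, 1 was (Cox7a2), where 12.6% of all genes were. These counts use the brightest probe of a gene, and a dimmer probe of Atp5o differed by more than 2-fold in both comparisons. Without untreated Sirt2-/- arrays 2 and 3, the untreated counts were 7 higher and 8 lower, of which 7 and 7 were among the calls with all arrays, and 36.4% of all genes were called.

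The genotype comparisons with and without interferon share no array, so the same gene can be read in both. A total of 13 members were higher in both, 9 were lower in both, 0 were called in opposite directions and 42 were called in neither. Higher in both were 18.1% of members and 21.7% of all genes, and lower in both 12.5% and 20.1%. The 22 shared calls are 91.7% of the members' calls with interferon and 78.6% of those without, where the shares over all genes were 82.9% and 81.4%. The difference had the same sign in 66 of 72 members and in 10482 of 12128 genes, and the values correlated across genes with Pearson's r of 0.94, against 0.92 over all genes. Both comparisons use the same cell populations, and genes are not independent replicates. They also share the estimate of spread of each gene from the same fit, so a call in both is not a separate check. The 9 lower in both include Cox7a1, which lies near background and passed the filter only through treated Sirt2+/+ cells. The 22 genes are named by complex, including those outside the rule for named genes.

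**Figure D2:**
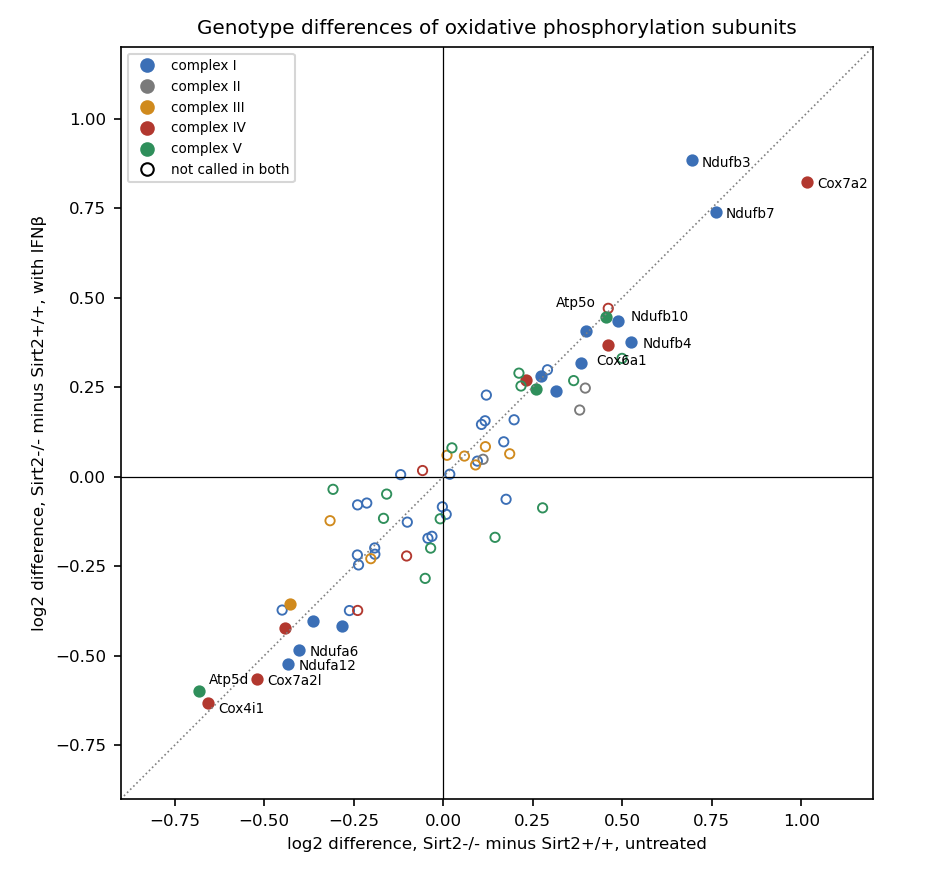
Each point is 1 of 72 subunit genes, with its log2 difference (Sirt2-/- minus Sirt2+/+) with interferon on the vertical axis and without it on the horizontal axis, coloured by complex and filled where called in both. The 13 filled points at the upper right and the 9 at the lower left lie along the diagonal (dotted), with Cox7a2 farthest from 0.

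Averaged over a complex, the opposing differences largely cancelled. The mean log2 value of the 72 members was 11.29 ± 0.04 and 11.28 ± 0.08 in treated and untreated Sirt2-/- cells, and 11.28 ± 0.07 and 11.24 ± 0.11 in treated and untreated Sirt2+/+ cells (SD, n = 3 each). The ranges of the 4 groups overlap. For complex I they were 11.32 ± 0.05 and 11.32 ± 0.08 in Sirt2-/- cells, and 11.31 ± 0.05 and 11.28 ± 0.11 in Sirt2+/+ cells. For complex IV they were 11.10 ± 0.02 and 11.07 ± 0.10, against 11.12 ± 0.07 and 11.06 ± 0.11. Complex II was the exception in size, with 10.41 ± 0.06 and 10.45 ± 0.13 in Sirt2-/- cells and 10.25 ± 0.16 and 10.15 ± 0.19 in Sirt2+/+ cells, over 3 genes. The arrays with interferon overlap for complex II, and without interferon the lowest Sirt2-/- array (10.31) lies just above the highest Sirt2+/+ array (10.28).

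**Figure D3:**
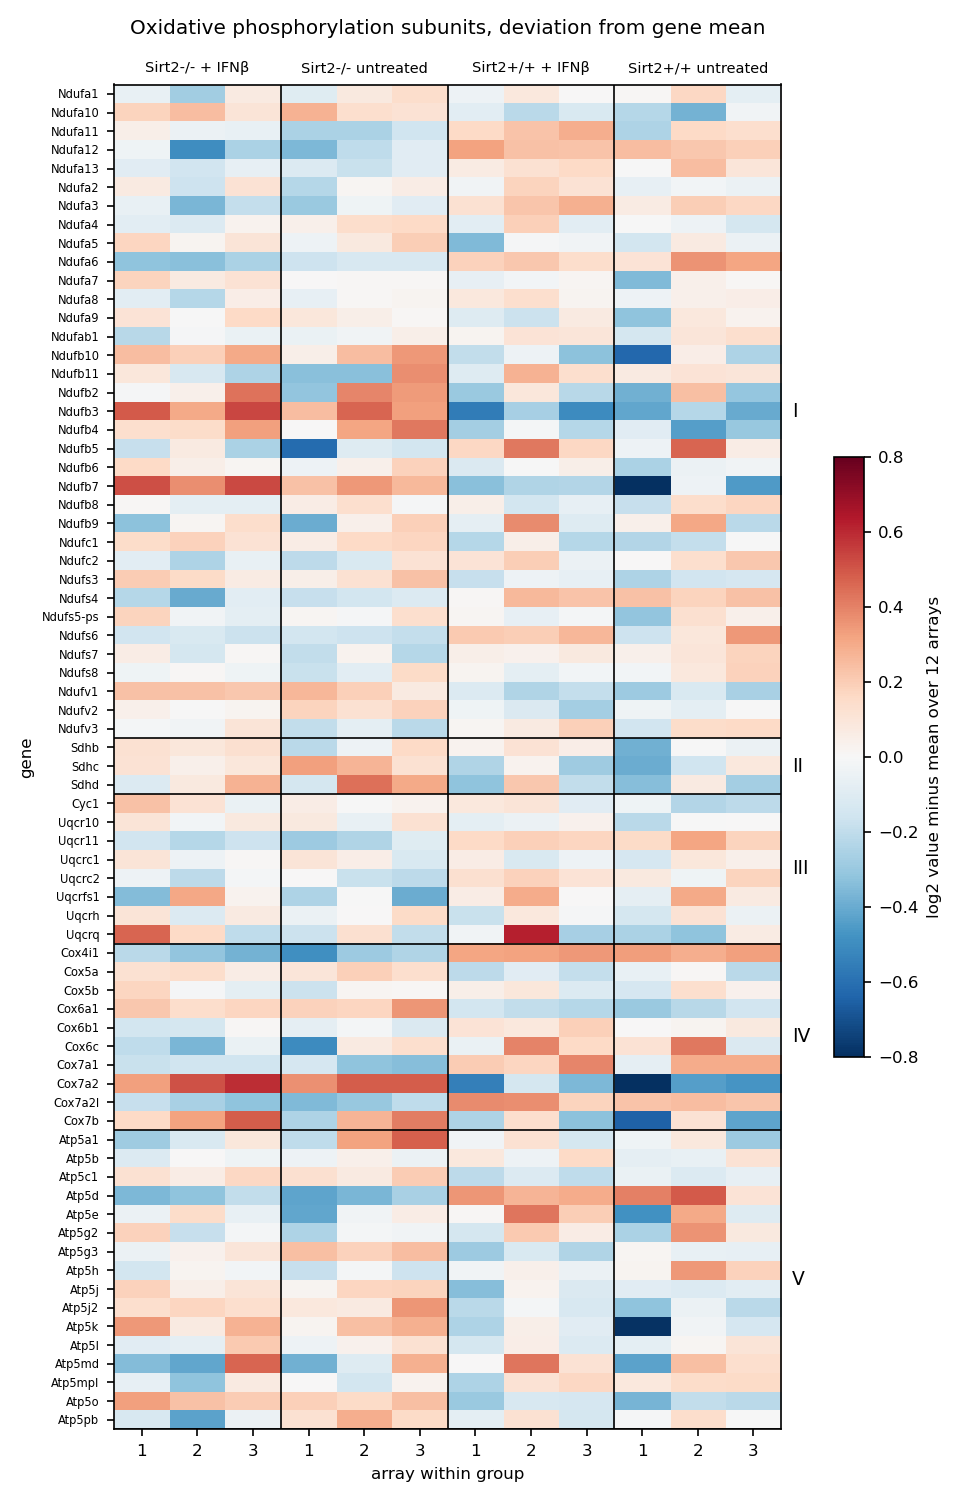
Rows are the 72 subunit genes by complex and columns the 12 arrays, coloured by the log2 value minus the mean of the gene over all arrays. Rows such as Cox7a2, Ndufb3 and Ndufb7 are red on the 6 Sirt2-/- arrays and blue on the 6 Sirt2+/+ arrays, Cox4i1, Cox7a2l and Atp5d are the reverse, and no row passed the test for interferon.

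In complex I, 8 of 35 genes were higher and 5 lower with interferon (37.1% called), and 8 were higher and 6 lower untreated (40%). Among all genes 50.3% and 51.2% were called. The accessory subunits named Ndufb, which sit mostly in the outer part of the membrane arm, included 4 higher and 0 lower of 10 with interferon and 4 higher and 1 lower untreated. Those named Ndufa included 1 higher and 3 lower of 13 with interferon and 1 higher and 4 lower untreated. Among all genes 27.1% were called higher and 23.2% lower with interferon, and 27.1% and 24.2% untreated. These classes were looked at after the values were seen.

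Ndufb3, an accessory subunit of the membrane arm, measured 10.85, 10.67 and 10.90 in treated Sirt2-/- cells against 9.81, 10.10 and 9.86 in treated Sirt2+/+ cells. Untreated, it measured 10.61, 10.83 and 10.69 in Sirt2-/- cells against 9.95, 10.14 and 9.96 in Sirt2+/+ cells. All 6 Sirt2-/- arrays were higher than all 6 Sirt2+/+ arrays. The difference was 0.88 ± 0.11 with interferon, a 1.84-fold change (adjusted p = 2.4e-05, limma), and 0.69 ± 0.11 without (adjusted p = 0.00018, limma).

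Ndufb7, another membrane arm subunit, whose window holds the GABPA letters, measured 9.47, 9.33 and 9.49 in treated Sirt2-/- cells against 8.63, 8.72 and 8.72 in treated Sirt2+/+ cells. Untreated, it measured 9.20, 9.31 and 9.22 in Sirt2-/- cells against 8.01, 8.92 and 8.51 in Sirt2+/+ cells. The groups do not overlap in either comparison, and the untreated Sirt2+/+ arrays spread the most. The difference was 0.74 ± 0.17 with interferon and 0.76 ± 0.17 without (adjusted p = 0.0026 and 0.0021, limma).

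Ndufb4, whose window holds the NRF1 letters at 3 places, was dimmer. It measured 7.99, 8.01 and 8.19 in treated Sirt2-/- cells against 7.58, 7.85 and 7.63 in treated Sirt2+/+ cells, and 7.86, 8.17 and 8.28 against 7.77, 7.42 and 7.56 untreated. The differences were 0.38 ± 0.13 and 0.52 ± 0.13 (adjusted p = 0.030 and 0.0049, limma). The call with interferon was lost without treated Sirt2-/- array 3, without treated Sirt2+/+ array 1 or 3, and with no filter on dim probes. Without untreated Sirt2-/- arrays 2 and 3 the untreated call was lost (adjusted p = 0.24, limma).

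Ndufa12 was the member of complex I that lay furthest below Sirt2+/+ cells in Sirt2-/- cells when both were treated. It is an accessory subunit of the NADH-oxidising tip of the complex. It measured 12.34, 11.88 and 12.13 in treated Sirt2-/- cells against 12.70, 12.61 and 12.61 in treated Sirt2+/+ cells, and 12.02, 12.18 and 12.29 against 12.62, 12.59 and 12.57 untreated. The Sirt2-/- arrays lay below the Sirt2+/+ arrays in both comparisons, by 0.52 ± 0.12 and 0.43 ± 0.12 in size (adjusted p = 0.0024 and 0.0077, limma).

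The core subunits of complex I include those that carry the flavin and the iron-sulfur clusters. Ndufv1, the flavin-binding subunit that takes electrons from NADH, measured 12.85, 12.85 and 12.83 in treated Sirt2-/- cells against 12.51, 12.38 and 12.43 in treated Sirt2+/+ cells. Untreated, it measured 12.88, 12.81 and 12.69 against 12.33, 12.49 and 12.36. It was higher in Sirt2-/- cells by 0.41 ± 0.09 with interferon and 0.40 ± 0.09 without (adjusted p = 0.0023 and 0.0026, limma), with no overlap of arrays. Ndufs3 was higher by 0.24 ± 0.09 and 0.31 ± 0.09 (adjusted p = 0.046 and 0.012, limma). Its call with interferon was lost in 13 of 20 alternative settings, and without untreated Sirt2-/- arrays 2 and 3 the untreated call was lost too (adjusted p = 0.24, limma).

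The other core subunits with a tested probe did not pass. Ndufv2 differed by 0.16 ± 0.09 with interferon and 0.20 ± 0.09 without (adjusted p = 0.15 and 0.079, limma), and its Sirt2-/- arrays lay above the Sirt2+/+ arrays in both. Ndufs7 differed by -0.08 ± 0.10 and -0.24 ± 0.10 (adjusted p = 0.54 and 0.060, limma). Ndufs8 differed by 0.01 ± 0.10 and -0.12 ± 0.10 (adjusted p = 0.97 and 0.35, limma). Ndufa4, long listed with complex I and now known to belong to complex IV, differed by -0.06 ± 0.10 and 0.18 ± 0.10 (adjusted p = 0.63 and 0.16, limma).

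Further complex I genes were called in both comparisons. Ndufa10, Ndufb10 and Ndufc1 were higher, by 0.27 to 0.49. Ndufa3, Ndufa6 and Ndufs4 were lower, with differences between -0.28 and -0.48. Without untreated Sirt2-/- arrays 2 and 3 the untreated calls of Ndufb10, Ndufc1, Ndufa3 and Ndufs4 were lost (adjusted p = 0.28, 0.35, 0.051 and 0.080, limma). Of 20 alternative settings, the calls with interferon were lost in 4 for Ndufa10, 5 for Ndufb10 and 9 for Ndufc1. They were lost in 0 for Ndufa3, Ndufa6 and Ndufs4. The untreated call was lost in 13 settings for Ndufa3 and in 8 for Ndufc1. Ndufs4, which with Ndufs6 and Ndufa12 belongs to the part of the complex that is joined late in assembly, has 4 kept probes, and on each of them the mean was lower in Sirt2-/- cells in both comparisons. Of these probes, 3 passed with interferon and 2 passed untreated. Ndufs6 was lower with interferon only (-0.37 ± 0.11, adjusted p = 0.015, limma, and -0.26 ± 0.11, adjusted p = 0.073, limma, untreated), and Ndufa13 and Ndufb5 passed as lower only untreated. The Ndufa13 call was lost without Sirt2-/- arrays 2 and 3 (adjusted p = 0.27, limma). None of these genes that passed in a single comparison passed the test of the difference of responses.

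Complex II has no mitochondrial DNA-encoded subunit and also works in the TCA cycle. Sdhc, a membrane anchor, measured 11.12, 11.05 and 11.09 in treated Sirt2-/- cells against 10.77, 11.03 and 10.72 in treated Sirt2+/+ cells, a difference of 0.25 ± 0.13 (adjusted p = 0.12, limma). Untreated, it measured 11.34, 11.28 and 11.13 against 10.61, 10.85 and 11.09, and was higher in Sirt2-/- cells by 0.40 ± 0.13 (adjusted p = 0.019, limma). The untreated call was lost without Sirt2-/- arrays 2 and 3 (adjusted p = 0.064, limma), and when untreated Sirt2-/- array 1 or 2 or untreated Sirt2+/+ array 1 was left out. A second, dimmer probe of Sdhc passed in both comparisons, with 0.83 ± 0.17 and 0.68 ± 0.17 (adjusted p = 0.0013 and 0.0052, limma over all probes). Sdhd, the other anchor, differed by 0.19 ± 0.18 and 0.38 ± 0.18, and Sdhb, the iron-sulfur subunit, by 0.05 ± 0.12 and 0.11 ± 0.12, with no call.

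In complex III, 1 of 8 genes passed in each comparison (12.5%), where 50.3% and 51.2% of all genes did. Uqcr11, a small accessory subunit, measured 12.81, 12.73 and 12.79 in treated Sirt2-/- cells against 13.12, 13.15 and 13.13 in treated Sirt2+/+ cells, and 12.67, 12.72 and 12.86 against 13.11, 13.27 and 13.14 untreated. The Sirt2-/- arrays were lower throughout, and the differences of -0.36 ± 0.09 and -0.43 ± 0.09 passed the test (adjusted p = 0.0050 and 0.0015, limma). The core proteins gave no call. Uqcrc2 differed by -0.23 ± 0.10 and -0.20 ± 0.10 (adjusted p = 0.072 and 0.11, limma), Uqcrc1 by 0.06 ± 0.10 and 0.01 ± 0.10, and Cyc1 by 0.06 ± 0.10 and 0.19 ± 0.10. Uqcrfs1, the Rieske iron-sulfur protein, has a probe near background (4.68 to 5.39 over the 12 arrays), so its values carry little information on the gene.

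In complex IV, 3 of 10 genes were higher and 3 lower in both comparisons (60% called, where 50.3% and 51.2% of all genes were). The 3 lower include Cox7a1, which lies near background and passed the filter only through treated Sirt2+/+ cells, where it is highest. Cytochrome c oxidase contains subunits with alternative isoforms, and the related genes Cox7a2 and Cox7a2l differed in opposite directions. Cox7a2, the form found in most tissues, measured 9.50, 9.68 and 9.76 in treated Sirt2-/- cells against 8.63, 9.03 and 8.82 in treated Sirt2+/+ cells. Untreated, it measured 9.54, 9.66 and 9.66 in Sirt2-/- cells against 8.37, 8.73 and 8.70 in Sirt2+/+ cells. Every Sirt2-/- array was above every Sirt2+/+ array. It was higher in Sirt2-/- cells by 0.82 ± 0.13 with interferon, 1.77-fold, and by 1.02 ± 0.13 without, 2.02-fold (adjusted p = 0.00016 and 2.6e-05, limma). Without untreated Sirt2-/- arrays 2 and 3 the untreated difference was 0.94 ± 0.20 (adjusted p = 0.0030, limma).

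Cox7a2l, the related protein that takes part in joining complex III and complex IV into supercomplexes, was lower. It measured 10.58, 10.50 and 10.44 in treated Sirt2-/- cells against 11.14, 11.14 and 10.94 in treated Sirt2+/+ cells, and 10.41, 10.46 and 10.56 against 10.99, 11.01 and 10.99 untreated. No array of one genotype reached the other. The differences were -0.57 ± 0.09 and -0.52 ± 0.09 (adjusted p = 0.00020 and 0.00039, limma). Cox7a1, the heart and muscle form, was detected on 0 of 6 Sirt2-/- arrays, so its level there is a bound. It measured between 4.45 and 4.66 in Sirt2-/- cells and between 4.72 and 5.18 in Sirt2+/+ cells. That is at least 1.07-fold lower with interferon and at least 1.035-fold lower without (adjusted p = 0.0084 and 0.0065, limma). It passed the detection filter only through treated Sirt2+/+ cells, the group where it is highest. That selection favours a lower value in Sirt2-/- cells, so these calls are no support for a difference. The call with interferon was lost with the authors' deposited log2 values (adjusted p = 0.078, limma), and the untreated call without Sirt2-/- arrays 2 and 3 (adjusted p = 0.19, limma). Cox7a1 lies on the same chromosome as Sirt2, with 40 protein-coding genes between them in the RefSeq order, and Cox6b1 lies there with 68 between them.

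Cox4i1, the nuclear subunit through which ATP is known to inhibit the enzyme, measured 13.15, 13.05 and 12.98 in treated Sirt2-/- cells against 13.68, 13.69 and 13.71 in treated Sirt2+/+ cells. Untreated, it measured 12.87, 13.07 and 13.12 against 13.69, 13.65 and 13.69. All 6 Sirt2-/- arrays lie below all 6 Sirt2+/+ arrays. The differences of -0.63 ± 0.09 and -0.66 ± 0.09 are folds of 0.646 and 0.634 (adjusted p = 9.1e-05 and 6.5e-05, limma). The other isoform, Cox4i2, was detected on 0 of 12 arrays.

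Among the other complex IV subunits, Cox6a1, which carries NRF1 letters at 2 places, measured 12.77, 12.69 and 12.73 in treated Sirt2-/- cells against 12.40, 12.35 and 12.32 in treated Sirt2+/+ cells. Untreated, it measured 12.74, 12.72 and 12.91 against 12.26, 12.33 and 12.40. It was higher in Sirt2-/- cells by 0.37 ± 0.09 and 0.46 ± 0.09 (adjusted p = 0.0038 and 0.00079, limma). Cox5a was higher by 0.27 ± 0.09 and 0.23 ± 0.09, the second at the edge of the threshold (adjusted p = 0.024 and 0.0499, limma) and lost in 14 of 20 alternative settings, the one without untreated Sirt2-/- arrays 2 and 3 among them (adjusted p = 0.34, limma). Cox6b1 differed by -0.22 ± 0.09 and -0.10 ± 0.09 and did not pass (adjusted p = 0.0502 and 0.35, limma), while its second probe was called lower in both, with -0.32 ± 0.10 and -0.33 ± 0.10 (adjusted p = 0.016 and 0.014, limma over all probes). Cox7b, which is X-linked, differed by 0.47 ± 0.21 and 0.46 ± 0.21 (adjusted p = 0.077 and 0.081, limma), and the X-linked complex I genes Ndufa1 and Ndufb11 gave no call either.

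**Figure D4:**
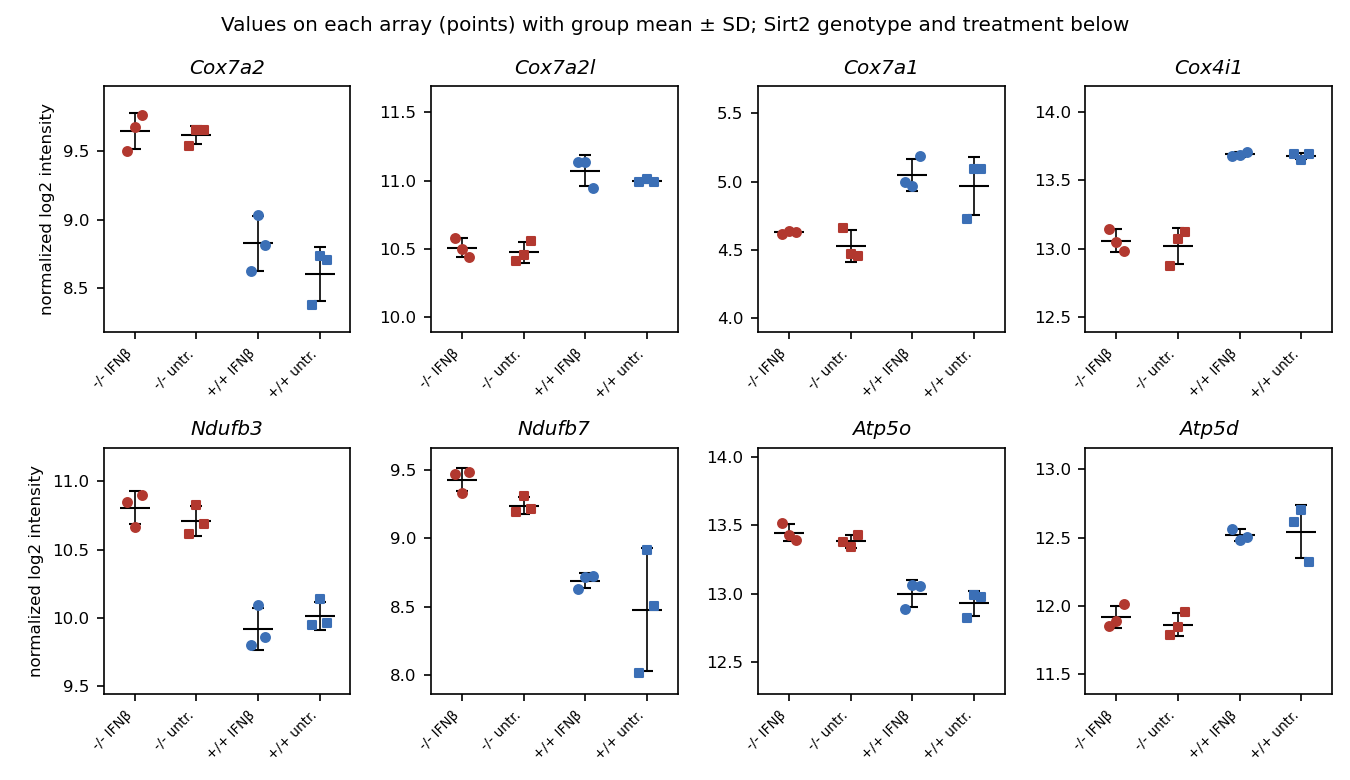
Points are normalized log2 intensities on each array of the 4 groups (Sirt2-/- with interferon, Sirt2-/- untreated, Sirt2+/+ with interferon, Sirt2+/+ untreated), with the mean and SD of 3 arrays, on vertical axes of equal span. Cox7a2, Ndufb3, Ndufb7 and Atp5o sit higher and Cox7a2l, Cox7a1, Cox4i1 and Atp5d lower in Sirt2-/- cells, and treated and untreated arrays of a genotype sit close together.

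In complex V, 3 of 16 genes were higher and 1 lower with interferon, and 4 were higher and 2 lower untreated. That is 25% and 37.5% called, where 50.3% and 51.2% of all genes were. Atp5d, the delta subunit of the rotating central stalk, measured 11.85, 11.89 and 12.01 in treated Sirt2-/- cells against 12.56, 12.48 and 12.50 in treated Sirt2+/+ cells, and 11.79, 11.84 and 11.95 against 12.61, 12.70 and 12.32 untreated. All Sirt2-/- arrays were below all Sirt2+/+ arrays. The differences were -0.60 ± 0.11 and -0.68 ± 0.11 (adjusted p = 0.00048 and 0.00017, limma).

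Atp5o, the oligomycin-sensitivity-conferring protein that links the stalk to the catalytic head, measured 13.52, 13.43 and 13.39 in treated Sirt2-/- cells against 12.89, 13.06 and 13.05 in treated Sirt2+/+ cells, and 13.38, 13.34 and 13.43 against 12.82, 12.99 and 12.97 untreated. It was higher in Sirt2-/- cells by 0.45 ± 0.09 and 0.46 ± 0.09 (adjusted p = 0.0013 and 0.0011, limma). The size depends on the probe, as seen after the values were read. A second, dimmer probe of Atp5o measured 10.35, 10.37 and 10.49 in treated Sirt2-/- cells against 8.52, 8.95 and 8.65 in treated Sirt2+/+ cells, a difference of 1.70 ± 0.15, and its untreated difference was 1.69 ± 0.15. The remaining probe, near background, differed by 0.70 ± 0.14 with interferon and by 0.16 ± 0.14 untreated (adjusted p = 0.35, limma over all probes). The probes share a sign but not a size, and which transcripts they read was not tested.

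The catalytic core of complex V gave small values. Atp5c1, the gamma subunit that turns inside the head, was higher by 0.29 ± 0.08 with interferon (adjusted p = 0.012, limma) and differed by 0.21 ± 0.08 untreated (adjusted p = 0.052, limma). Atp5a1, the alpha subunit, differed by -0.09 ± 0.17 and 0.28 ± 0.17, and Atp5b, the beta subunit, by -0.12 ± 0.09 and -0.01 ± 0.09, with no call. Atp5g3 was higher by 0.25 ± 0.09 and 0.26 ± 0.09 (adjusted p = 0.033 and 0.025, limma), and these calls were lost in 8 and 6 of 20 alternative settings. Atp5g2, another gene for subunit c, differed by -0.05 ± 0.16 and -0.16 ± 0.16. Atp5k, a small subunit near the dimer interface, was higher untreated by 0.50 ± 0.17 (adjusted p = 0.028, limma), a call lost without untreated Sirt2-/- arrays 2 and 3, without array 2 or 3 alone, without untreated Sirt2+/+ array 1, with no filter on dim probes and in a fit on the untreated groups alone. Untreated, Atp5j2 was also called higher and Atp5h lower, and both calls were lost without Sirt2-/- arrays 2 and 3 (adjusted p = 0.18 and 0.093, limma).

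Probes of the same gene can check each other for the 25 members with more than 1 kept probe. No gene had probes called in opposite directions in either genotype comparison. With interferon, all probes were called the same way for 6 genes, some for 5 and none for 14, and untreated the counts were 5, 3 and 17. Over all 106 kept probes, 21 were higher and 15 lower with interferon, and 21 higher and 12 lower untreated. Of all 17837 kept probes, 48.3% and 48.9% were called. For the interferon response, 0 probes passed in Sirt2-/- cells and 1 in Sirt2+/+ cells, a second probe of Ndufb8, which was lower.

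Genes that act on or beside the complexes were counted from lists made with earlier results of these data known. Of 41 assembly factors, 13 were higher and 3 lower with interferon, and 15 higher and 6 lower untreated, with median differences of 0.15 and 0.23. That is 39% and 51.2% called, where 50.3% and 51.2% of all genes were. Bcs1l, which inserts the Rieske protein into complex III, was higher by 0.94 ± 0.12 with interferon and 0.98 ± 0.12 without (adjusted p = 2.2e-05 and 1.6e-05, limma). Tmem70, which takes part in ATP synthase assembly, was higher by 0.63 ± 0.12 with interferon, and Coa6, a copper chaperone for complex IV, was lower untreated (-0.72 ± 0.11).

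Of 73 genes of the mitochondrial ribosome, which translates the mitochondrial DNA-encoded subunits, 25 were higher and 4 lower with interferon. Untreated, 33 were higher and 6 lower. That is 39.7% and 53.4% called, where 50.3% and 51.2% of all genes were. The median differences were 0.14 and 0.20. Mrpl35 was higher by 1.10 ± 0.15 and 1.11 ± 0.15, and Mrps6 was lower, with -1.73 ± 0.15 and -1.46 ± 0.15. Of 8 mitochondrial DNA-encoded transcripts, 0 were called by limma in either comparison, and 0 had an unadjusted p under 0.05. Of 6 carriers and channels for nucleotides and phosphate, 1 was higher and 3 lower with interferon, and 1 higher and 4 lower untreated (66.7% and 83.3% of 6 genes). They include Slc25a4, an adenine nucleotide translocator (-0.67 ± 0.13 with interferon), and Slc25a3, the phosphate carrier (-0.62 ± 0.10 in both).

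Of 17 regulators of mitochondrial gene expression, 5 were higher and 2 lower with interferon, and 7 higher and 2 lower untreated. That is 41.2% and 52.9% called, where 50.3% and 51.2% of all genes were. Esrra, which encodes ERRalpha, was lower, with -0.86 ± 0.11 and -0.78 ± 0.11 (adjusted p = 3.7e-05 and 9.0e-05, limma), Tfb2m, a mitochondrial transcription factor, was higher by 0.75 ± 0.13 and 0.49 ± 0.13, and Gabpb1, the partner of GABPA, was higher by 0.64 ± 0.14 with interferon. Of 11 genes for electron carriers and coenzyme Q, 2 were higher and 3 lower with interferon and 3 higher and 2 lower untreated (45.5% in both). Coq9, a coenzyme Q synthesis protein, was higher by 0.74 ± 0.10 and 0.67 ± 0.10.

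Of 16 TCA cycle genes, 4 were higher and 4 lower with interferon and 3 higher and 4 lower untreated. That is 50% and 43.8% called, where 50.3% and 51.2% of all genes were. Idh3b, a subunit of isocitrate dehydrogenase, was higher by 0.69 ± 0.09 and 0.64 ± 0.09. Of 15 glycolysis genes, 4 were higher and 3 lower in both comparisons (46.7%). Slc16a3, the lactate exporter, was higher by 2.56 ± 0.19 and 2.89 ± 0.19, the glucose transporter gene Slc2a1 was lower, with -1.24 ± 0.12 and -1.10 ± 0.12, and Pdk1, a kinase that turns off pyruvate dehydrogenase, was higher by 0.95 ± 0.17 and 1.08 ± 0.17.

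The lists differed in their share of calls for interferon. Calls were 0 in both genotypes for the TCA cycle, the electron carriers and the mitochondrial DNA-encoded transcripts (unadjusted p under 0.05 in limma for 0, 0 and 2 in Sirt2-/- cells and for 1, 0 and 0 in Sirt2+/+ cells), and of the 73 ribosome genes 1 passed in Sirt2-/- and 2 in Sirt2+/+ cells. Of the 41 assembly factors, 3 rose and 2 fell in Sirt2-/- cells, and 3 rose and 3 fell in Sirt2+/+ cells (12.2% and 14.6%, where 6.61% and 13.8% of all genes were called). Cox18, which inserts a mitochondrial DNA-encoded part of complex IV into the membrane, rose by 0.69 ± 0.12 in Sirt2-/- cells and 1.27 ± 0.12 in Sirt2+/+ cells (adjusted p = 0.0034 and 1.1e-05, limma). Cox15, which makes heme a for complex IV, rose by 0.55 ± 0.12 and 0.62 ± 0.12 (adjusted p = 0.015 and 0.0048, limma). Of the 17 regulators, 0 were called in Sirt2-/- cells and 2 in Sirt2+/+ cells (11.8%). In Sirt2+/+ cells Tfb2m fell by 0.50 and Tfam, the mitochondrial DNA packaging factor, fell by 0.45 on the log2 scale (adjusted p = 0.022 and 0.046, limma). Also in Sirt2+/+ cells, 1 of the 6 carriers (16.7%) and 1 of the 15 glycolysis genes (6.67%) fell. In Sirt2-/- cells 0 of either list were called. The difference of responses passed in limma for 0 of the 41 assembly factors and 0 of the 17 regulators, with an unadjusted p under 0.05 for 1 of each.

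**Figure D5:**
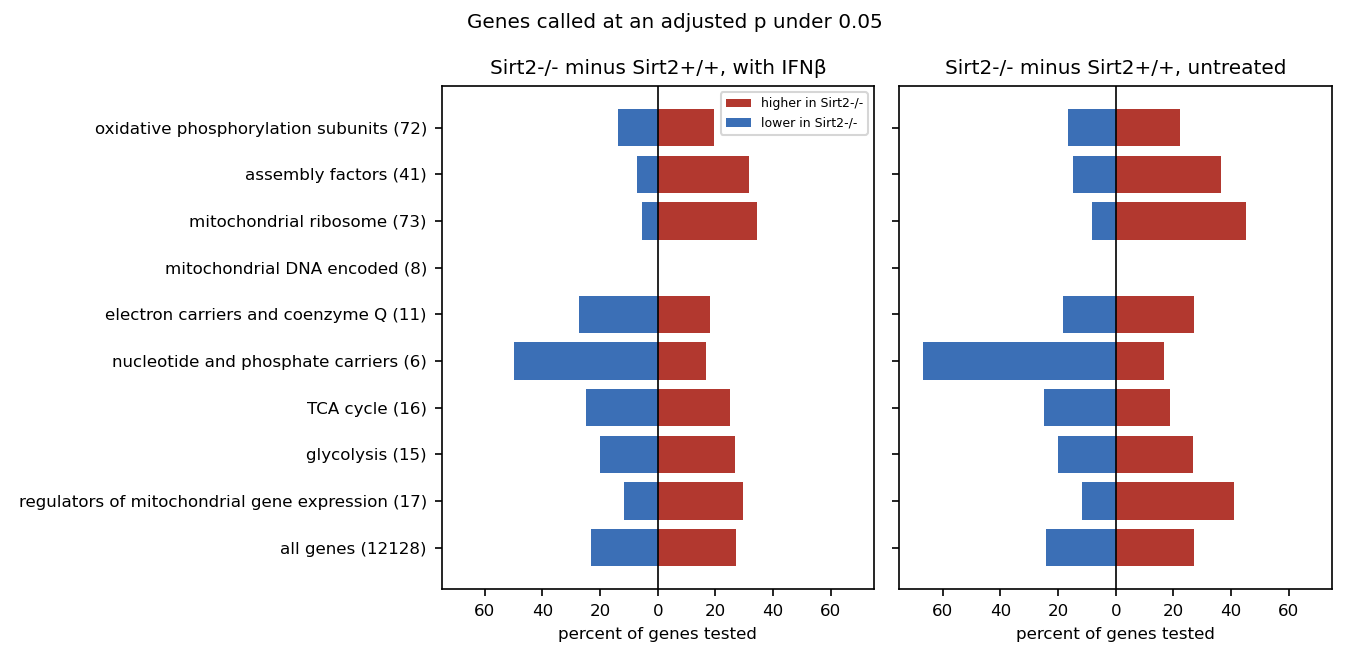
Bars give the percent of tested genes called higher (right) or lower (left) in Sirt2-/- than in Sirt2+/+ cells, with interferon (left panel) and untreated (right panel), for the subunit genes, the gene lists and all genes, with the number tested in parentheses. The subunit genes are called in 33.3% and 38.9%, below the 50.3% and 51.2% of all genes, and no mitochondrial DNA-encoded transcript is called.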

How the data were processed

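Each of 12 samples gave 150 ng of total RNA for an Illumina bead array read in 1 colour, per the labels' protocols. The authors deposited a linear intensity for every probe, with no background subtraction, and per the file headers each has a detection p-value against the negative controls of the array. The log2 table they also deposited differs by at most 0.000639 from quantile-normalized log2 intensities. The sources used here name neither scanner software nor slides.

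Intensities were corrected with normexp from the detection p-values, with an offset of 16, quantile-normalized and log2-transformed (neqc, limma 3.58.1, R 4.3.3). Of 45281 probes, 34885 carry 1 symbol in the platform annotation, 18 several and 10378 none. Of these, 34807 were looked up by gene ID in RefSeq, which changed 0 symbols. The brightest kept probe stood for a gene. Of 12128 features, called genes here, 9723 have a name. A mean per group was fitted with limma over 12 arrays, 5 contrasts were tested two-sided, and p-values were adjusted by Benjamini-Hochberg over 12128 genes at 0.05. Differences are log2 values ± the standard error of the fit. Where a gene was not detected on any array of a group, its fold is a bound against the dimmest detected probes. The calculation was tested on simulated data. The number of arrays limits the precision.

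The members and lists were chosen with earlier results of these data known. The rule names, per complex, the 3 called members with the largest difference, the core subunits and alternative isoforms, and the 3 largest called genes of each list. Others are named because they were called, and Atp5pb after its values were seen. Not all genes the rule names are printed. Alternatives were the authors' deposited log2 values, median scaling, other filters on dim probes, the mean of the probes of a gene, a replicate block, a fit on the compared groups, and leaving out arrays. Same-numbered arrays of different groups deviated together with correlations between -0.115 and 0.176. The numbers were therefore not used as a pairing in the main fit, but with 3 arrays per group this check cannot exclude a pairing.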

Additional observations from a re-analysis of the deposited data

How the results depend on the processing

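The counts of 0 for the interferon responses and their difference held in all alternatives run, except that 1 member (Atp5pb) passed as lower in Sirt2-/- cells with the authors' deposited log2 values and with median scaling. The untreated genotype count of 16 members higher fell to 7 without untreated Sirt2-/- arrays 2 and 3. Leaving out 1 array at a time gave 8 to 16 members higher and 9 to 13 lower with interferon, and 9 to 16 higher and 8 to 15 lower untreated. The count of 14 higher with interferon became 9, 9 and 9 without treated Sirt2-/- array 1, 2 or 3, and 8 and 8 without treated Sirt2+/+ array 1 or 3, and the count of 16 untreated became 9 without untreated Sirt2-/- array 3 and 10 without untreated Sirt2+/+ array 1. Median scaling gave 10 higher and 10 lower with interferon and 18 higher and 8 lower untreated, against 14 and 10, and 16 and 12. With the replicate block, a pairing that the check of same-numbered arrays neither shows nor excludes, the counts were 13 higher and 11 lower with interferon and 17 higher and 11 lower untreated, and 0 for both interferon responses. No called member reversed under any of these alternatives. Of the 24 members called with interferon, 15 passed in all of them and 9 lost the call in at least 1, and of the 28 called untreated 13 passed in all and 15 did not. The 13 are Atp5d, Atp5o, Cox4i1, Cox6a1, Cox7a2, Cox7a2l, Ndufa6, Ndufa10, Ndufa12, Ndufb3, Ndufb7, Ndufv1 and Uqcr11. The slide could not be used as a block, and a fit on the compared groups alone gives no difference of responses. Signal near background limits Cox7a1 and Uqcrfs1.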
